A study of Mus musculus with 12 samples.

Results

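The Bcl2 family genes examined here are 10 regulators of mitochondrial cell death, namely Bcl2, Bcl2l1, Mcl1, Bax, Bak1, Bcl2l11, Bid, Bbc3, Pmaip1 and Bmf. They were taken by gene name from a mouse expression array and make up 10 of its 31541 gene names and 12 of its 39429 probes. All 12 probes passed the filter used throughout, a signal that Feature Extraction marks as well above background on each array of some group, so no member was lost to it. Bcl2l1 and Mcl1 had 2 probes each and the other members had 1.

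Bone marrow of female C57BL/6 mice aged 16 weeks was sorted into 6 groups, each measured on 2 one-colour arrays. All groups carry the same transgene, in which Cebpa enhancer and promoter sequence drives human CD4 (hCD4) as a surface reporter. Cebpa encodes a transcription factor of myeloid differentiation. The groups are hCD4+ granulocyte-monocyte progenitors (GMP), hCD4+ and hCD4- pre-pro-B cells, hCD4+ and hCD4- pro-B cells, and pre-B cells, for which the labels give no hCD4 status. The series title names 2 mice, and the labels do not say which mouse gave which array, so the p-values rest only on the spread of these samples, which may be technical. No cells without the transgene were measured.

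Bcl2 family proteins meet at the outer mitochondrial membrane. Bax and Bak1 are the effectors that open pores in it and release cytochrome c, which starts the caspase cascade. Bcl2, Bcl-xL (the product of Bcl2l1) and Mcl1 hold the effectors back, and the BH3-only proteins Bim (Bcl2l11), Bid, Puma (Bbc3), Noxa (Pmaip1) and Bmf neutralise these guardians or engage the effectors directly. B cell precursors that fail to make a working antigen receptor die by this route, and interleukin 7 signalling is known to support their survival.

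The sequences of 3 probes in the coding part of their transcripts are shown. All values of Bcl2 and Bcl2l11 rest on theirs, and the Bcl2l1 one is the second probe, against which the Bcl2l1 values were checked. All are 60 bases, copied from the array files and written 5′ to 3′, with positions on mouse build mm9 as the array annotation gives them. In the Bcl2 probe the capitals mark codons of the conserved BH1 region, and in the Bcl2l11 probe the codons of the core of the BH3 region, by which Bim binds its partners. The Bcl2 probe lies at chr1:108608970-108609029 on the minus strand. The second Bcl2l1 probe lies at chr2:152655185-152655244 on the minus strand, 48.7 kilobases from the first Bcl2l1 probe. The Bcl2l11 probe spans an intron between chr2:127972893-127983988 on the plus strand.
Bcl2 probe: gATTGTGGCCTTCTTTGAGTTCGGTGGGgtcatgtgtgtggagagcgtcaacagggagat
Bcl2l1 second probe: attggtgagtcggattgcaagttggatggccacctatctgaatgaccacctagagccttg
Bcl2l11 probe: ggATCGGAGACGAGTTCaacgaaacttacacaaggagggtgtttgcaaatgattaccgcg

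Levels are log2 of the deposited processed signal minus the 75th percentile of that array, so 0 is the brightness of that percentile and 1 is a doubling. They are relative to the other genes of the same array. In such bulk samples fewer cells of a type and less RNA per cell cannot be told apart. A level is compared only for the same probe across groups, never between probes. Changes are differences of these levels with their standard errors (SE) from limma, fitted as 1 model of 6 groups over 18597 genes. P-values were adjusted over all these genes within a comparison (Benjamini-Hochberg), and "rose" and "fell" are used at an adjusted p under 0.05.

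Replicate arrays correlated at 0.982 to 0.992 across genes, and 50.7 to 56.9% of probes were well above background. Replicates of hCD4- pre-pro-B cells had a median SD of 0.22 over genes, against 0.10 to 0.15 for the other groups, and the model shares 1 error estimate over all groups. Per the file headers, 1 slide held GMP and hCD4- pre-pro-B arrays, another hCD4- pro-B and hCD4+ pre-pro-B arrays, and another hCD4+ pro-B and pre-B arrays. Only the comparisons of GMP with hCD4- pre-pro-B and of pre-B with hCD4+ pro-B cells lie within a slide; for all others slide and group cannot be told apart. All 10 pro-B markers were above background on both arrays of the pro-B and pre-B groups, but only 5 of 10 for hCD4+ and 4 of 10 for hCD4- pre-pro-B cells. All 5 plasmacytoid dendritic cell markers were above background in both pre-pro-B groups, and in the pro-B and pre-B groups too. Their summed levels were 9.02 to 9.15 on hCD4+ and 9.44 to 9.54 on hCD4- pre-pro-B arrays, against 6.84 to 7.66 in pro-B and pre-B arrays. The summed level of the 8 GMP markers was 7.12 to 7.27 in hCD4+ pro-B and 1.47 to 1.62 in hCD4- pro-B arrays. It was 4.31 to 5.52 in hCD4+ pre-pro-B and 2.02 to 2.24 in hCD4- pre-pro-B arrays. On both hCD4- pro-B arrays 7 of 8 mature neutrophil markers were above background. The part of these other cell types in the results on pre-pro-B and pro-B cells was not tested.

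All 10 members differed among the 6 groups by limma's moderated F test, beside 82.7% of all genes, so a call by itself sets a member apart from few genes. The sizes were very unequal. Bmf spanned 7.75 log2 units between its highest and lowest group mean, wider than the span of 98.7% of genes. Its lowest group, GMP, was not well above background, so the size of this span holds for the present scale only. Bcl2l1 spanned 5.26 and Bcl2 4.17. At the other end Bax spanned 0.55, Mcl1 0.77 and Bak1 1.10.

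**Figure D1:**
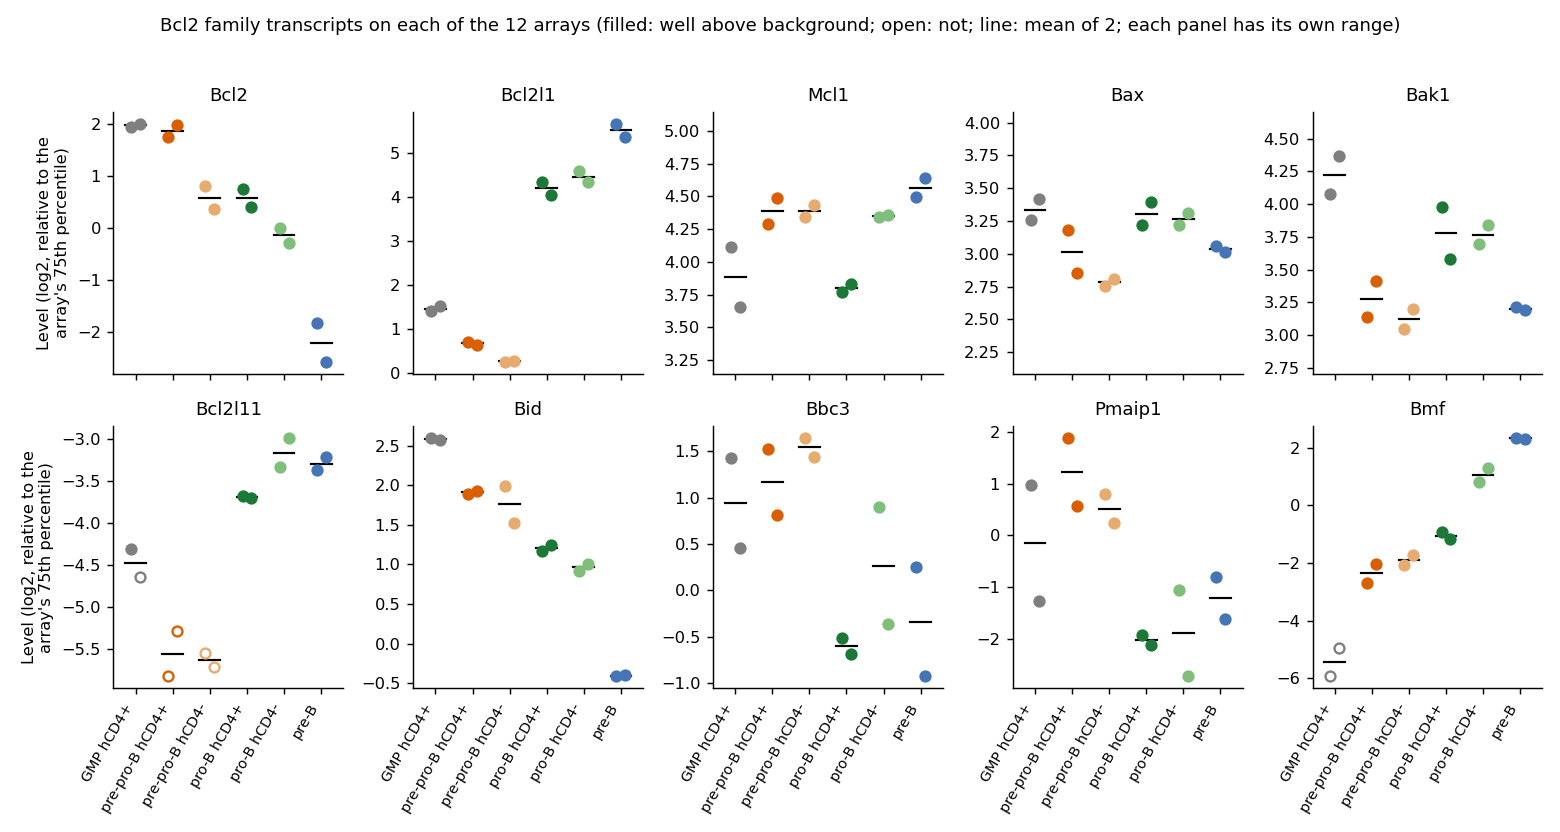
Levels of the 10 members on each of the 12 arrays (log2 relative to the array's 75th percentile; points are arrays, filled where well above background, lines are means of 2, each panel with its own range). Bcl2 and Bid are lowest in pre-B cells, where Bcl2l1 and Bmf are highest, while Bax stays within 2.75 to 3.41 on all arrays.

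Bcl2, the founding survival gene of the family, was brightest in GMP and hCD4+ pre-pro-B cells and dimmest in pre-B cells. Its level was 1.93 and 2.00 in GMP, 1.74 and 1.97 in hCD4+ pre-pro-B, 0.79 and 0.35 in hCD4- pre-pro-B, 0.75 and 0.40 in hCD4+ pro-B, 0.00 and -0.29 in hCD4- pro-B and -1.84 and -2.58 in pre-B arrays. The GMP and hCD4+ pre-pro-B arrays overlapped, as did the hCD4+ pro-B and hCD4- pre-pro-B arrays, and the other neighbours in this order did not. Between pre-B and hCD4+ pro-B cells, a comparison within a slide, Bcl2 fell by 2.78 (SE 0.27, adjusted p = 9.37e-05), a 6.86-fold difference.

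Bcl2l1, whose main product Bcl-xL is a survival protein, ran the other way. Its level was 1.41 and 1.52 in GMP, 0.72 and 0.63 in hCD4+ pre-pro-B, 0.26 and 0.28 in hCD4- pre-pro-B, 4.36 and 4.05 in hCD4+ pro-B, 4.59 and 4.35 in hCD4- pro-B and 5.68 and 5.37 in pre-B arrays. Only the 2 pro-B groups overlapped. In hCD4- cells it rose by 4.21 from the pre-pro-B to the pro-B stage (SE 0.16, 18.5-fold, adjusted p = 2.45e-07), and pre-B cells stood a further 1.05 above hCD4- pro-B cells (SE 0.16, adjusted p = 0.00137).

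The second Bcl2l1 probe, in the coding exon shown above, was also brightest in pre-B cells. It was not well above background on any GMP or pre-pro-B array. Its level was -2.57 and -2.46 in hCD4+ pro-B, -2.31 and -2.23 in hCD4- pro-B and -0.71 and -0.31 in pre-B arrays. By this probe Bcl2l1 was at least 13.8-fold higher in hCD4+ pro-B than in hCD4+ pre-pro-B cells and at least 9.86-fold higher in hCD4- pro-B than in hCD4- pre-pro-B cells. "At least" sets the dim group to the higher of its own signal and the dimmest signal still well above background on its arrays. Where its own signal is the higher, here and below, the bound is the measured fold. It then holds for the present scale only and is no limit under other processing.

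**Figure D2:**
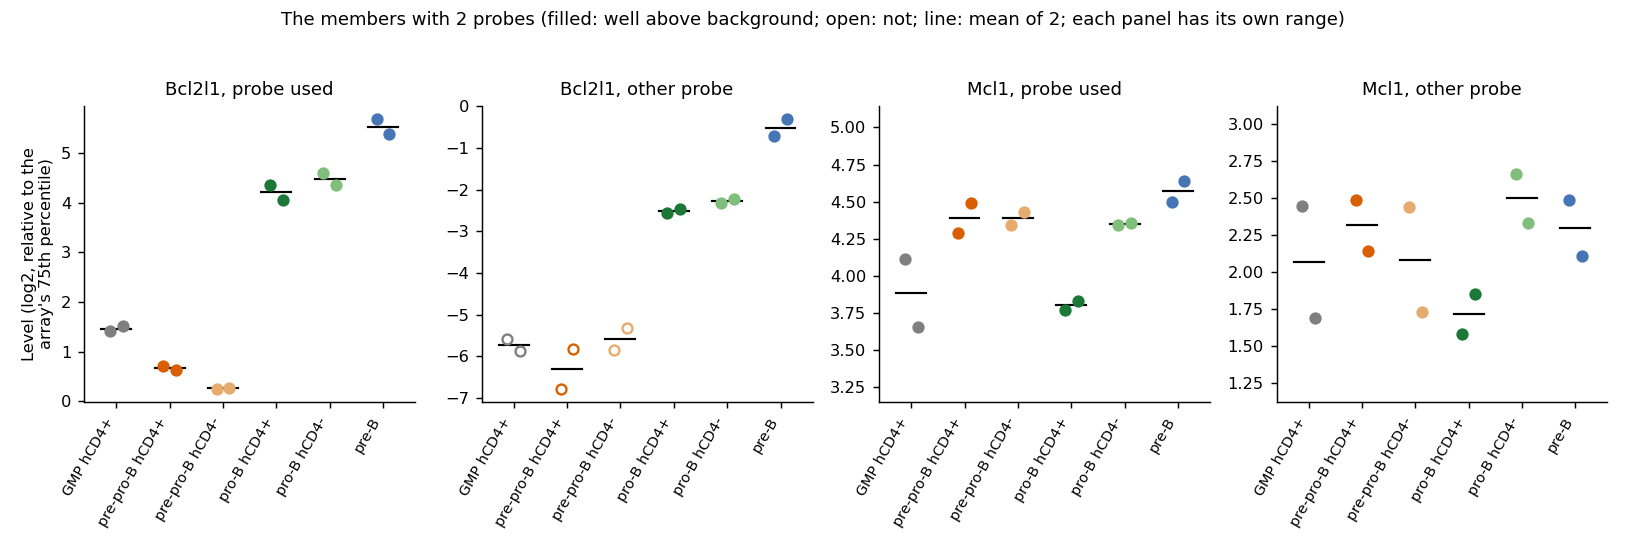
Both probes of Bcl2l1 and of Mcl1 by array (log2 level relative to the array's 75th percentile; filled points are well above background, open points are not, lines are means of 2). For Bcl2l1 both probes are highest in pre-B arrays, and for Mcl1 both have their lowest group mean in hCD4+ pro-B arrays.

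Mcl1, a short-lived survival protein that lymphocytes depend on, was bright everywhere and varied little. Its level was 4.11 and 3.65 in GMP, 4.29 and 4.49 in hCD4+ pre-pro-B, 4.34 and 4.43 in hCD4- pre-pro-B, 3.77 and 3.83 in hCD4+ pro-B, 4.34 and 4.36 in hCD4- pro-B and 4.50 and 4.64 in pre-B arrays. The hCD4+ pro-B arrays lay below every other array except the second GMP array. The second Mcl1 probe ranged from 1.58 to 2.66 over the 12 arrays and also had its lowest group mean in hCD4+ pro-B cells, but neighbouring groups overlapped.

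Of the effectors, Bax changed least among the 10 members. It lay between 2.75 and 3.41 on every array, with its lowest values, 2.75 and 2.81, in hCD4- pre-pro-B cells. Bak1 was brightest in GMP at 4.08 and 4.36. It was 3.14 and 3.41 in hCD4+ pre-pro-B, 3.05 and 3.20 in hCD4- pre-pro-B, 3.98 and 3.58 in hCD4+ pro-B, 3.69 and 3.84 in hCD4- pro-B and 3.21 and 3.19 in pre-B arrays. The GMP arrays lay above all others, the pro-B groups overlapped each other, and the pre-B arrays overlapped both pre-pro-B groups.

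Bcl2l11, which encodes Bim, was dim throughout. It was not well above background on any of the 4 pre-pro-B arrays and was on 1 of 2 GMP arrays, at -4.31. Its level was -3.68 and -3.71 in hCD4+ pro-B, -3.34 and -2.99 in hCD4- pro-B and -3.37 and -3.22 in pre-B arrays. The hCD4- pro-B and pre-B arrays overlapped and lay above the hCD4+ pro-B arrays.

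Bmf, a BH3-only protein linked to the cytoskeleton, climbed through the B lineage stages. It was not well above background in GMP, and stood at -2.69 and -2.03 in hCD4+ pre-pro-B, -2.07 and -1.70 in hCD4- pre-pro-B, -0.93 and -1.16 in hCD4+ pro-B, 0.80 and 1.28 in hCD4- pro-B and 2.34 and 2.31 in pre-B arrays. Only the 2 pre-pro-B groups overlapped.

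Bid, which links death receptors to mitochondria once caspases cleave it, declined in the same direction as Bcl2. Its level was 2.60 and 2.57 in GMP, 1.89 and 1.93 in hCD4+ pre-pro-B, 1.99 and 1.53 in hCD4- pre-pro-B, 1.17 and 1.25 in hCD4+ pro-B, 0.92 and 1.00 in hCD4- pro-B and -0.41 and -0.40 in pre-B arrays. Again only the 2 pre-pro-B groups overlapped.

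Bbc3 and Pmaip1, both known targets of p53, had the largest standard errors of the family, 0.53 and 0.81 per comparison. Bbc3 was 1.43 and 0.46 in GMP, 1.52 and 0.81 in hCD4+ pre-pro-B, 1.64 and 1.44 in hCD4- pre-pro-B, -0.52 and -0.69 in hCD4+ pro-B, 0.90 and -0.37 in hCD4- pro-B and 0.25 and -0.92 in pre-B arrays. Pmaip1 was 0.97 and -1.28 in GMP, 1.88 and 0.56 in hCD4+ pre-pro-B, 0.80 and 0.24 in hCD4- pre-pro-B, -1.93 and -2.11 in hCD4+ pro-B, -1.07 and -2.72 in hCD4- pro-B and -0.81 and -1.62 in pre-B arrays. Every pair of neighbouring groups in either order overlapped, and the 4 pre-pro-B arrays lay above the 4 pro-B arrays for Pmaip1 but not for Bbc3. The median level of 11 immediate early and handling stress genes also varied between arrays of a group, for example 3.23 and 1.06 in GMP; its part in the spread was not tested.

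The first comparison asks whether pre-pro-B cells that carry the Cebpa reporter on their surface differ from those that do not. Bcl2 was the only member that rose, with none that fell, beside 8.76% of all genes called higher and 8.28% called lower. Bcl2 was 1.28 higher in hCD4+ than in hCD4- pre-pro-B cells (SE 0.27, 2.43-fold, adjusted p = 0.0151), and the 2 groups did not overlap. The change of Bcl2l1 was 0.41 (SE 0.16, adjusted p = 0.112). It passed with each array's median as the scale (0.71, adjusted p = 0.0251) and turned its direction in the authors' deposited table (-0.05) and with the mean of its probes (-0.16), so no direction is given for it. The median change was 0.15 over the members and -0.06 over all genes. In the same comparison 18 of 20 S and G2/M phase genes rose with a median change of 2.13. The summed level of the GMP markers was also higher on the hCD4+ arrays, as given above. The part of cycling and of these markers in the Bcl2 difference was not tested. The Bcl2 call was lost without the second hCD4+ array (1.17, adjusted p = 0.0959), without the second hCD4- array (1.06, adjusted p = 0.086), with array weights and in a fit of these 4 arrays alone. Of all called genes 51.4% were higher, or 83.4% with each array's median in place of its 75th percentile.

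Among pro-B cells 2 members fell and none rose, beside 8.83% of genes called lower and 11.6% called higher. Bmf was 2.08 lower in hCD4+ than in hCD4- pro-B cells by limma (SE 0.35, 4.24-fold, change -2.08, adjusted p = 0.00541). Mcl1 fell by 0.55 (SE 0.16, adjusted p = 0.0454), and the change of its second probe was -0.78 and missed the threshold (SE 0.32, adjusted p = 0.128). Bcl2 was 0.72 higher in hCD4+ cells without overlap of the groups (SE 0.27, adjusted p = 0.0946), and Bcl2l11 differed by -0.53 (SE 0.21, adjusted p = 0.11). Bcl2l11 did pass after normexp with quantile normalization and in the authors' deposited table. Over all settings its change lay between -0.75 and -0.34. The median change was -0.20 over the members and 0.02 over all genes. The Mcl1 call was lost after quantile normalization (adjusted p = 0.0744), after normexp with quantile normalization and with the mean of its probes (adjusted p = 0.0531). It was lost without the filter on dim probes too, and on leaving out any 1 of the 4 pro-B arrays (changes -0.52 to -0.58). Leaving out either pre-B array or either hCD4+ pre-pro-B array also ended it. Of all called genes 56.8% were higher, or 31.2% with each array's median as the scale.

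The difference of these contrasts, pro-B minus pre-pro-B, was tested as an interaction term of the same model. Only Bmf passed, with a lower hCD4 contrast in pro-B cells, beside 9.97% of genes called lower and 13.0% called higher. The Bmf contrast was -2.08 in pro-B and -0.48 in pre-pro-B cells, a difference of -1.61 (SE 0.49, adjusted p = 0.0481). For Bcl2 the contrasts of 0.72 in pro-B and 1.28 in pre-pro-B cells differed by -0.57 (SE 0.37, adjusted p = 0.299), so a difference in the response of Bcl2 was not shown. For Bcl2l1 the difference was -0.68 (SE 0.22, adjusted p = 0.0593); it passed with each array's median as the scale (-1.2, adjusted p = 0.00894) and among probes above background on all 12 arrays (adjusted p = 0.0438), while the mean of its probes gave -0.10 and the authors' deposited table no difference (adjusted p = 1). The Bmf call was lost with array weights (adjusted p = 0.0677), without the filter on dim probes (adjusted p = 0.0836), and on leaving out any 1 array of the 4 groups other than the first hCD4+ pre-pro-B array (difference -1.28 to -1.85, adjusted p 0.0636 to 0.147) or either pre-B array (adjusted p = 0.0699). Of all called genes 56.7% were higher, against 18.1% with each array's median as the scale and 45.9% after quantile normalization.

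**Figure D3:**
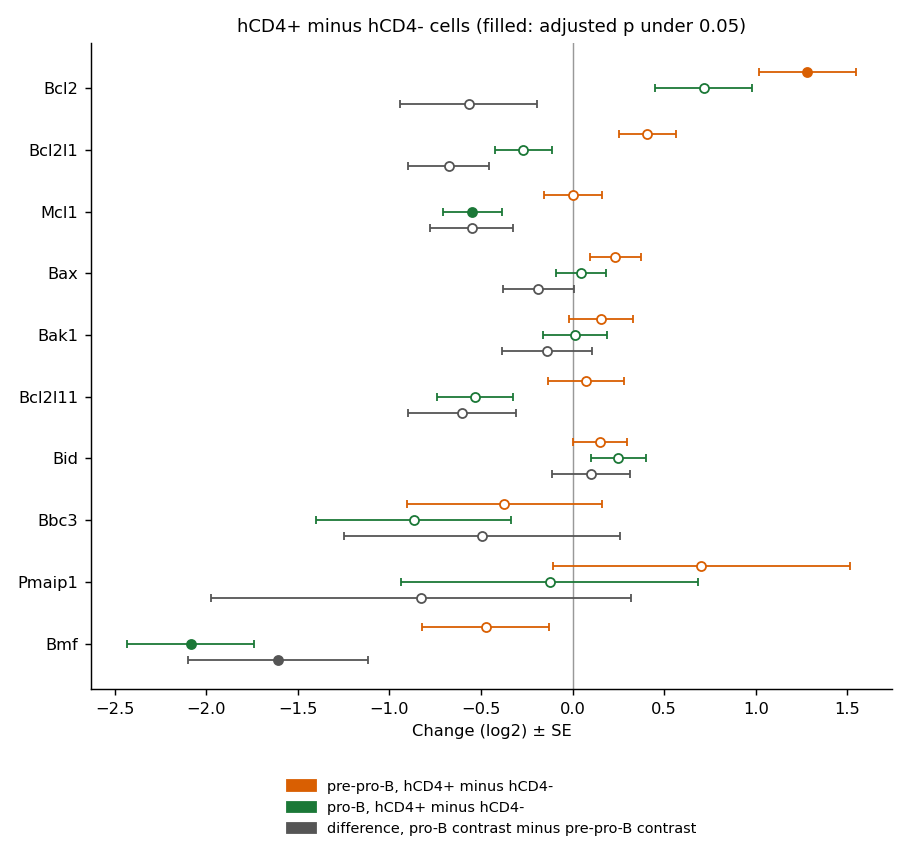
Change of each member between hCD4+ and hCD4- cells (log2, points with SE bars, filled where the adjusted p was under 0.05) in pre-pro-B cells, in pro-B cells and as the difference between these contrasts. Only Bcl2 in pre-pro-B cells, and Bmf and Mcl1 in pro-B cells, are filled among the contrasts, and only Bmf for the difference.

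The step from pre-pro-B to pro-B cells moved most of the family. In hCD4- cells 5 members rose and 3 fell, beside 32.7% of genes called higher and 27.0% called lower, and in hCD4+ cells 4 rose and 5 fell, beside 33.0% called higher and 21.0% called lower. These comparisons share no arrays. Rising in both were Bcl2l1, Bcl2l11, Bmf and Bak1, and falling in both were Bcl2, Bid and Pmaip1. Bax passed only in hCD4- cells, and Bbc3 and Mcl1 only in hCD4+ cells, and for none of these 3 did the difference between the hCD4 states pass the test. With each array's median as the scale that difference did pass for Mcl1 (-1.07, adjusted p = 0.0147) and Bax (-0.71, adjusted p = 0.0301). In hCD4- cells Bbc3 also passed in the authors' deposited table (-1.3, adjusted p = 0.0316) and after normexp with quantile normalization (-1.28, adjusted p = 0.0393).

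Bcl2l1 rose by 3.53 in hCD4+ cells (SE 0.16, 11.5-fold, adjusted p = 1.83e-06), against the 4.21 in hCD4- cells given above; the authors' deposited table gives 2.5 for both. Of these stages Bim was well above background in pro-B cells only. Bcl2l11 was at least 3.63-fold higher in hCD4+ pro-B than in hCD4+ pre-pro-B cells (adjusted p = 1.54e-04) and at least 5.51-fold higher in hCD4- pro-B than in hCD4- pre-pro-B cells (adjusted p = 1.88e-05). Bmf rose by 1.31 in hCD4+ cells (SE 0.35, adjusted p = 0.0125) and by 2.92 in hCD4- cells (SE 0.35, adjusted p = 1.42e-04). Bak1 rose by 0.50 in hCD4+ cells (SE 0.17, adjusted p = 0.0388) and by 0.64 in hCD4- cells (SE 0.17, adjusted p = 0.0124), and Bax by 0.48 in hCD4- cells (SE 0.14, adjusted p = 0.0163). By normexp with quantile normalization the Bcl2l11 change was 0.42 in hCD4+ and 0.74 in hCD4- cells, and the authors' deposited table gave 0.45 and 0.90. The bounds above hold for the present scale, and the direction and the calls held in both alternatives. The Bak1 call in hCD4+ cells was lost with each array's median as the scale (0.17, adjusted p = 0.457), in the authors' deposited table (0.30, adjusted p = 0.137), after quantile normalization (0.40, adjusted p = 0.082), after normexp with quantile normalization (0.37, adjusted p = 0.0563), without the filter on dim probes (adjusted p = 0.0811) and in a fit of the arrays compared (adjusted p = 0.0942). In hCD4- cells the Bak1 call was lost after quantile normalization and in the authors' deposited table, with a lowest change over all settings of 0.35. The Bax call there was lost after both quantile normalizations and in a fit of the arrays compared, with a lowest change of 0.28. By the calls of the main fit, the rise in both hCD4 states took in a survival gene, an effector and a pair of BH3-only genes.

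Of the falling members, Pmaip1 moved furthest. It fell by 3.24 in hCD4+ cells (SE 0.81, adjusted p = 0.00985) and by 2.41 in hCD4- cells (SE 0.81, adjusted p = 0.0312). Bcl2 fell by 1.28 in hCD4+ cells (SE 0.27, adjusted p = 0.00398) and by 0.72 in hCD4- cells (SE 0.27, adjusted p = 0.0455). Bid fell by 0.70 in hCD4+ cells (SE 0.15, adjusted p = 0.0048) and by 0.80 in hCD4- cells (SE 0.15, adjusted p = 0.00197). In hCD4+ cells Bbc3 fell by 1.77 (SE 0.53, adjusted p = 0.0225) and Mcl1 by 0.59 (SE 0.16, adjusted p = 0.0141); in hCD4- cells they differed by -1.27 (adjusted p = 0.0694) and -0.04 (adjusted p = 0.851).

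The median change was -0.15 over the members and 0.25 over all genes in hCD4+ cells, and 0.22 and 0.02 in hCD4- cells. In this step 17 of 20 S and G2/M genes rose in hCD4+ cells and 18 of 20 in hCD4- cells, and the part of cycling and of the dendritic cell markers of the pre-pro-B arrays was not tested. Leaving out single arrays ended the following calls. In hCD4+ cells the call of Bak1 (0.30 to 0.50) ended without the first array of either hCD4+ group, or without any 1 hCD4- pro-B or pre-B array, and that of Bbc3 (-1.41 to -1.85) without the first pre-pro-B array or either pro-B array. There too, Bmf (0.99 and 1.2) was lost without the first array of either group, Mcl1 (-0.49 and -0.56) without the second pre-pro-B or the first pro-B array, and Pmaip1 (-2.58 and -3.15) without the first pre-pro-B or the second pro-B array. In hCD4- cells Bak1 (0.57 both times) and Bax (0.45 and 0.43) were lost without the first pre-pro-B or the second pro-B array. Pmaip1 (-1.58 to -2.69) was lost without either pre-pro-B array or the second pro-B array, and Bcl2 (-0.49 to -0.86) without the first pre-pro-B array, either pro-B array or any 1 hCD4+ array; with each array's median as the scale the Bcl2 change was -0.52 and did not pass. The calls of Bcl2l1, Bcl2l11 and Bid held without any 1 array in both hCD4 states. Of all genes called in hCD4+ cells 61.1% were higher, or 39.2% with each array's median as the scale.

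The step from pro-B to pre-B cells continued the opposite movements of Bcl2 and Bcl2l1. Against hCD4+ pro-B cells, on the same slide, 3 members rose and 3 fell, beside 18.8% of genes called higher and 24% called lower. Against hCD4- pro-B cells 2 rose and 3 fell, beside 19.7% called higher and 21.3% called lower. The 2 comparisons share the pre-B arrays.

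Bcl2 fell by 2.06 against hCD4- pro-B cells (SE 0.27, adjusted p = 7.10e-04), beside the 2.78 given above against hCD4+ pro-B cells. Bid fell by 1.62 in pre-B against hCD4+ pro-B cells (SE 0.15, 3.07-fold, adjusted p = 8.16e-05) and by 1.37 against hCD4- pro-B cells (SE 0.15, adjusted p = 3.32e-04). Bak1 fell by 0.58 (SE 0.17, adjusted p = 0.028) and 0.57 (SE 0.17, adjusted p = 0.0324) against the same groups.

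Bmf rose by 3.37 against hCD4+ pro-B cells (SE 0.35, 10.3-fold, adjusted p = 1.36e-04) and 1.29 against hCD4- pro-B cells (SE 0.35, adjusted p = 0.0192). Bcl2l1 rose by 1.32 against hCD4+ pro-B cells (SE 0.16, adjusted p = 2.85e-04), and its second probe by 2.00 (SE 0.31, adjusted p = 0.00122 over kept probes). Against hCD4- pro-B cells the second probe rose by 1.76 (SE 0.31, adjusted p = 0.00317). Mcl1 rose by 0.77 against hCD4+ pro-B cells (SE 0.16, adjusted p = 0.00531) and was 0.22 higher against hCD4- pro-B cells (SE 0.16, adjusted p = 0.3). Bcl2l11 differed by 0.40 against hCD4+ pro-B cells (SE 0.21, adjusted p = 0.159) and by -0.13 against hCD4- pro-B cells (SE 0.21, adjusted p = 0.649).

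The median change was 0.33 over the members and 0.02 over all genes against hCD4+ pro-B cells, and -0.18 and 0.03 against hCD4- pro-B cells. In a fit of the shared slide alone 5 of the 6 calls against hCD4+ pro-B cells held, and that of Bak1 did not (adjusted p = 0.0582). Single arrays ended the Bak1 call against hCD4+ pro-B cells (either pre-B array or the first pro-B array, -0.38 to -0.59) and against hCD4- pro-B cells (any 1 of the 4, -0.49 to -0.64). They also ended the Bmf call against hCD4- pro-B cells (either pre-B array or the first pro-B array, 1.05 to 1.3, adjusted p 0.0736 to 0.109). Of all genes called against hCD4- pro-B cells 48.0% were higher, or 34.8% with each array's median as the scale.

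**Figure D4:**
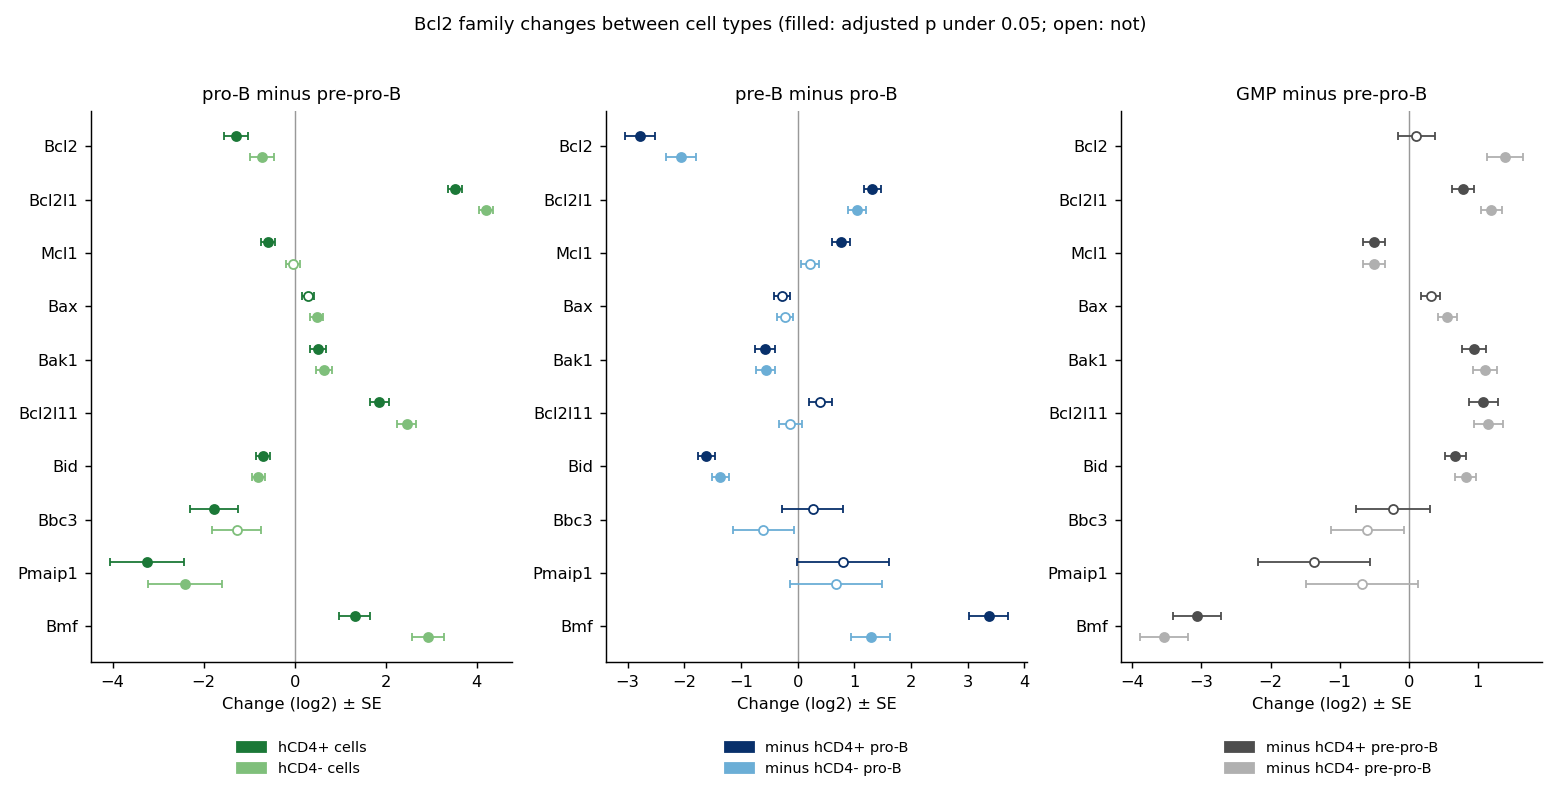
Changes of the members between cell types (log2, points with SE bars, filled where the adjusted p was under 0.05), for pro-B minus pre-pro-B, pre-B minus pro-B and GMP minus pre-pro-B cells. Bcl2l1 lies right of 0 in all 6 comparisons, while Bmf lies right of 0 in the B lineage steps and left of it in GMP.

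GMP, the myeloid progenitors, were set against the pre-pro-B cells. Against hCD4+ pre-pro-B cells 4 members rose and 2 fell, beside 31.3% of genes called higher and 22.8% called lower. Against hCD4- pre-pro-B cells, on the same slide, 6 rose and 2 fell, beside 34.7% called higher and 30.7% called lower. The 2 comparisons share the GMP arrays. Of 20 S and G2/M genes 10 rose against hCD4+ pre-pro-B cells (median change 0.58) and 18 against hCD4- pre-pro-B cells (2.56), and the summed level of the plasmacytoid dendritic cell markers was 6.39 to 6.42 in GMP, below the pre-pro-B values given above; their part in these results was not tested.

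Bak1 rose by 0.95 in GMP against hCD4+ pre-pro-B cells (SE 0.17, adjusted p = 0.00197) and by 1.10 against hCD4- pre-pro-B cells (SE 0.17, adjusted p = 6.38e-04). Bcl2l1 rose by 0.79 (SE 0.16, adjusted p = 0.00289) and 1.2 (SE 0.16, adjusted p = 2.01e-04) in the same order, and Bid by 0.68 (SE 0.15, adjusted p = 0.00517) and 0.83 (SE 0.15, adjusted p = 0.00137). The authors' deposited table gave 0.50 and 0.45 for Bcl2l1, which passed there too. The second Bcl2l1 probe was not well above background in any of these groups. Bcl2l11, measured on 1 of 2 GMP arrays, was at least 2.11-fold higher than in hCD4+ and at least 2.22-fold higher than in hCD4- pre-pro-B cells. After normexp with quantile normalization these log2 changes were 0.27 and 0.25, the second no longer passing (adjusted p = 0.0513), and in the authors' deposited table both were 0.40.

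Bcl2 rose by 1.39 in GMP against hCD4- pre-pro-B cells (SE 0.27, adjusted p = 0.00177), and was 0.11 higher than in hCD4+ pre-pro-B cells (SE 0.27, adjusted p = 0.756) with overlapping groups. Bmf was at least 8.37-fold lower in GMP than in hCD4+ pre-pro-B cells (adjusted p = 1.23e-04) and at least 11.6-fold lower than in hCD4- pre-pro-B cells (adjusted p = 3.63e-05). The log2 changes of Bmf were -1.07 and -1.2 after normexp with quantile normalization and -1.3 and -1.35 in the authors' deposited table, smaller than these bounds, and passed in each. Mcl1 fell by 0.51 (SE 0.16, adjusted p = 0.0262) against hCD4+ and by 0.50 (SE 0.16, adjusted p = 0.0223) against hCD4- pre-pro-B cells. With the mean of its probes neither change passed (-0.38, adjusted p = 0.153, and -0.26, adjusted p = 0.287, in the same order). Its second probe averaged 2.07 on GMP arrays, beside 2.32 for the hCD4+ and 2.08 for the hCD4- group. Bax rose by 0.55 (SE 0.14, adjusted p = 0.00735) against the hCD4- cells.

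The median change was 0.22 over the members and 0.10 over all genes against hCD4+ pre-pro-B cells, and 0.69 and -0.04 against hCD4- pre-pro-B cells. In a fit of the shared slide alone 6 of the 8 calls against hCD4- pre-pro-B cells held, and those of Mcl1 (adjusted p = 0.133) and Bax (adjusted p = 0.0558) did not; with each array's median as the scale the Mcl1 change was -0.05. Both Mcl1 calls were lost without the second GMP array (-0.28 and -0.27) and without the second array of the pre-pro-B group compared (-0.41 and -0.46). Of all genes called against hCD4- pre-pro-B cells 53% were higher, or 69.1% with each array's median as the scale.

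Among 16 further BCL2 relatives, 14 were on the array and 10 passed the filter. Bok, an effector-like relative of Bax, showed the widest range and was not well above background in pre-pro-B cells. It was at least 447-fold higher in hCD4+ pro-B than in hCD4+ pre-pro-B cells. In hCD4- pro-B cells it was at least 394-fold higher than in hCD4- pre-pro-B cells. These bounds are the measured folds on the present scale (log2 changes 8.80 and 8.62). In pre-B cells it fell by 3.62 against hCD4+ pro-B cells (SE 0.23) and fell by 3.72 against hCD4- pro-B cells (SE 0.23). Bcl2l14 was at least 4.62-fold higher in hCD4+ than in hCD4- pro-B cells. Bcl2l2, which encodes the survival protein Bcl-w, fell by 0.86 (SE 0.14) at the hCD4+ and by 1.22 (SE 0.14) at the hCD4- pre-pro-B to pro-B step, and by a further 1.02 (SE 0.14) and 1.13 (SE 0.14) in pre-B against the same pro-B groups. In the list as a whole 3 rose and 5 fell at the hCD4+ step to pro-B cells (median change -0.27), beside 33.0% of all genes called higher and 21.0% called lower (median 0.25). At the hCD4- step 4 rose and 4 fell (median -0.02), beside 32.7% called higher and 27.0% called lower (median 0.02). Between hCD4+ and hCD4- pre-pro-B cells 0 passed by limma, beside only 8.76% of all genes called higher and 8.28% called lower.

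Downstream of the mitochondria, 14 genes of the apoptosome, the caspases and their inhibitors were tested. At the step to pro-B cells 5 rose and 4 fell in hCD4+ cells (median change 0.06), beside 33.0% and 21.0% of all genes, and 6 rose and 3 fell in hCD4- cells (median 0.36), beside 32.7% and 27.0%. Rises included Endog, a mitochondrial nuclease (2.03 in hCD4+ and 1.75 in hCD4- cells, SE 0.26 each), and Cycs, cytochrome c (0.89 and 1.44). Falls included Casp9, the initiator caspase of the apoptosome (-1.20 and -0.70, SE 0.12 each), and Birc3, an inhibitor of apoptosis (-1.14 and -2.01, SE 0.15 each). In pre-B cells Casp9 and Birc3 rose, by 1.43 and 2.07 against hCD4+ pro-B and by 0.98 and 1.64 against hCD4- pro-B cells. Between hCD4+ and hCD4- pre-pro-B cells Cycs rose by 0.66 (SE 0.13) and Birc3 fell by 1.31 (SE 0.15), and in pro-B cells Xiap (-0.58) and Casp9 (-0.45) fell.

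Of 8 death receptor pathway genes tested, 2 rose and 3 fell between hCD4+ and hCD4- pro-B cells, beside 11.6% and 8.83% of all genes, with a median change of -0.25 against 0.02. In pre-pro-B cells 0 passed by limma, beside only 8.76% of all genes called higher and 8.28% called lower. Tnfrsf1a, a receptor for tumour necrosis factor, rose by 1.64 in hCD4+ pro-B cells (SE 0.14), in the arrays that also carry the GMP markers given above. Tnfsf10, the ligand TRAIL, fell by 0.99 (SE 0.15) in the same comparison. In pre-B cells Tnfrsf1a fell by 4.74 (SE 0.14) against hCD4+ and by 3.1 (SE 0.14) against hCD4- pro-B cells.

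Lists of known regulators of the family were read at the same step, beside the same shares of all genes, 33.0% higher and 21.0% lower in hCD4+ cells and 32.7% and 27.0% in hCD4- cells. Of 11 genes of p53 and its targets, 5 rose and 2 fell at the hCD4+ step (median change 0.54) and 6 rose and 2 fell at the hCD4- step (median 0.70). Cdkn1a, the cell cycle inhibitor p21, rose by 3.50 in hCD4+ and 5.61 in hCD4- cells (SE 0.27 each; 1 of 2 hCD4- pre-pro-B arrays was well above background), and Zmat3 fell by 2.83 and 3.20 (SE 0.17 each), while the p53 targets Pmaip1 and Bbc3 stood as given above. Of 7 FOXO and stress regulators, 3 rose and 1 fell in hCD4+ cells (median 0.13) and 3 rose and 2 fell in hCD4- cells (median 0.90) at that step. Trib3, a stress-induced pseudokinase, had the largest rise, 3.71 in hCD4+ cells (SE 0.61) and at least 168-fold in hCD4- cells. Foxo1, whose product is known to activate Bcl2l11, rose by 1.31 in hCD4+ and 1.76 in hCD4- cells (SE 0.13 each), and it fell by 0.60 in hCD4+ against hCD4- pro-B cells (SE 0.13). Its relative Foxo3 fell at the step, by 0.51 and 0.94.

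Of 10 genes of the interleukin 7 and STAT5 axis, 4 rose and 2 fell at the hCD4+ step (median change 0.53), beside 33.0% and 21.0% of all genes, and 5 rose and 0 fell at the hCD4- step (median 0.69), beside 32.7% and 27.0%. The receptor gene Il7r had levels of 3.42 in hCD4+ and of 3.59 in hCD4- pre-pro-B cells, and at 3.0 in hCD4+ and 3.34 in hCD4- pro-B cells. Its change at the step was -0.42 in hCD4+ cells, which passed, and -0.25 in hCD4- cells, which did not (SE 0.14 each). The largest rises were of Myc, by 5.01 in hCD4+ and 5.81 in hCD4- cells (SE 0.37 each; 1 of 2 hCD4- pre-pro-B arrays was well above background), and of the STAT5 targets Socs2 and Cish. Cish, well above background on 1 of 2 arrays in each pre-pro-B group, rose by 4.92 in hCD4+ and 4.78 in hCD4- cells (SE 0.58 each). Socs2 rose by 4.67 in hCD4+ cells (SE 0.18) and was at least 81.1-fold higher in hCD4- pro-B than in hCD4- pre-pro-B cells, and Pim1 rose by 1.17 and 1.81 (SE 0.25 each). Between pre-B and pro-B cells 2 of the 10 rose and 4 fell against hCD4+ cells, and 2 rose and 5 fell against hCD4- cells, beside 18.8% and 24% and 19.7% and 21.3% of all genes. The fallers against both were Myc (-3.59 and -2.90, SE 0.37 each), Cish (-1.98 and -2.13, SE 0.58 each), Jak3 (-1.44 and -1.59, SE 0.33 each) and Stat5a (-1.0 and -0.81, SE 0.14 each). Socs2 passed against hCD4- pro-B cells (-1.17, SE 0.18). The risers were Il7r (1.08 and 0.74, SE 0.14 each) and Pim1 (1.36 and 0.86, SE 0.25 each).

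The genes most like a member across the 12 arrays were named by Pearson correlation among genes above background on all arrays. Closest to Bcl2 were Tbc1d5 (r = 0.977), St3gal2 (0.971) and Myo1f (0.969), among 9474 genes. Closest to Bcl2l1 were Cd24a (0.991), the heat-stable antigen used to sort B cell precursors, Zfpm1 (0.987) and Rnf145 (0.987). Closest to Bcl2l11 were Gstt2 (0.986), Prep (0.984) and Nt5c2 (0.980). These are descriptions over 12 arrays that share groups and slides.

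RefSeq's promoter table on GRCm38.p6, with 250 bases before to 50 after each start, held 16 windows for 9 of the members, and Pmaip1 was not in it. Both strands were searched for STAT letters TTCNNNGAA, FOXO letters TGTTTAC, C/EBP letters TTGCNNAA, EBF letters TCCCNNGGG and E protein letters CAGGTG, and no overlap between matches was removed. The STAT letters were in 0 of the 16 windows, beside 8.30% of all 32851 windows. FOXO letters were in 2 windows, of Bcl2l11 and Bbc3, beside 3.65% of all windows. C/EBP letters were in 3, of Bid and Bmf, beside 10.8%, EBF letters in 3, of Bcl2 and Bbc3, beside 6.56%, and E protein letters in 2, of Bbc3, beside 20.2%. The Bbc3 windows with EBF letters overlap, and the same EBF site is counted in both. The first Bcl2l11 window is shown as an example of a match, and the second Bcl2l11 window had no FOXO letters. The 250 bases before the start of the first window lie within chr2:128125788-128126087 on the plus strand. They have the FOXO letters (here on the reverse strand) in capitals. A match is a description of these letters and shows no binding.
Bcl2l11 upstream: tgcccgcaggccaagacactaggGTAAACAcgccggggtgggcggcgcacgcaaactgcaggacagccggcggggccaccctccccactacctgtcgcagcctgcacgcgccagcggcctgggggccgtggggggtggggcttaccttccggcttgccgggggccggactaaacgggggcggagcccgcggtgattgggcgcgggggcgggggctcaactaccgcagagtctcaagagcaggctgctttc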

How the data were processed

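Per the file headers, Feature Extraction 10.7.3.1 made the scanner files under its protocol GE1_107_Sep09, and the deposited processed signal is a background-subtracted intensity on a linear scale. Here its log2 was taken and each array's 75th percentile over non-control spots subtracted. Outlier spots were set to missing, no spot was saturated, and spots of 1 probe were averaged. Probes marked well above background on each array of some group were kept, and a gene is given by its kept probe with the highest mean level; 3910 of 18597 genes had several. The deposited file of log2 values, whose scaling is not stated and whose columns all have a median of 6.5, was an alternative; it correlated at 0.940 to 0.954 with the scanner values per array, with slopes of 0.68 to 0.76.

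Tests were two-sided, with limma 3.58.1 (lmFit, eBayes) in R 4.3.3. A single model held 6 groups of 2 arrays, the spread resting on 6 residual degrees of freedom and 2.15 from the prior. The 9 comparisons were each adjusted over all genes. Figures used matplotlib 3.10.9 under Python 3.11.15.

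The family members, the gene and marker lists and the tests were chosen with earlier results of these data known. The naming rule takes all members, at most 4 genes of a list in a comparison, those with the largest changes that passed, and the 3 closest genes to Bcl2, Bcl2l1 and Bcl2l11. Not every gene it allows is named. Bcl2l2, Cycs, Casp9, Birc3, Foxo3, Il7r, Pim1 and Stat5a fall outside it in some comparisons and were named there after their values were seen. All 12 member probes matched their RefSeq symbol by accession. Probe positions are on mm9, as the array annotation gives them. Precision is limited by the number of arrays. The tried alternatives are 2 quantile normalizations (1 after normexp with offset 50), the array median, the deposited log2 values, filters on dim probes, the mean of a gene's probes, the arrays compared alone, the replicate number as a block, array weights, slide, each array left out and, added after seeing the data, levels raised to the detection floor.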

Additional observations from a re-analysis of the deposited data

Results flagged for a closer look

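The hCD4 contrast of Bmf differed between stages by a test of the difference itself. It was -2.08 (SE 0.35) in pro-B and -0.48 (SE 0.35) in pre-pro-B cells, a difference of -1.61 (SE 0.49, limma adjusted p = 0.0481). Bmf was lower on both hCD4+ pro-B arrays (-0.93 and -1.16) than on both hCD4- pro-B arrays (0.80 and 1.28), whereas the hCD4+ pre-pro-B arrays (-2.69 and -2.03) overlapped the hCD4- pre-pro-B arrays (-2.07 and -1.70). The 4 groups lie on 3 slides, and slide cannot be told apart from group. The call was lost in 11 of 22 other settings, namely array weights (adjusted p = 0.0677), no filter on dim probes (adjusted p = 0.0836) and 9 of the fits that leave out 1 array (adjusted p 0.0636 to 0.147).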

How the results depend on the processing

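No call of a member changed direction. Under alternatives other than leaving out an array, 926 of 992 values of members kept their side of the threshold. There 47 ceased to pass and 19 began to pass. A change that passed in neither fit counts as kept even where its direction turned. Fits within a slide repeat those of the arrays compared and are counted again. No level of a member lay below the detection floor of its array. Raising levels to that floor therefore could not move the median change over the members and is no check on them. Leaving out single arrays ended calls too, as given above. The counts of members that follow are given without the share of all genes called under each setting. They describe the calls and are no result about the family. The number of members called between hCD4+ and hCD4- pre-pro-B cells was 1, and became 3 with the array median, 0 with array weights, 0 in a fit of only the arrays compared, and 0 to 2 on leaving out single arrays. Between hCD4+ and hCD4- pro-B cells it was 2, and became 1 after quantile normalization, 1 without a filter on dim probes, 1 with probes above background on all 12 arrays, which leaves Bmf and Bcl2l11 untested, 1 with the mean of a gene's probes, and 1 to 2 on leaving out single arrays. For the difference of these contrasts it was 1, and became 2 after quantile normalization, 5 with the array median, 2 in the authors' deposited table, 0 without a filter, 0 with array weights, and 0 to 1 on leaving out single arrays. On leaving out single arrays it ranged from 4 to 8 for the hCD4- and from 5 to 9 for the hCD4+ step to pro-B cells, and from 3 to 5 between pre-B and hCD4- pro-B cells; the lone array left in a group is then assumed to vary like the other groups. Between hCD4+ and hCD4- pro-B cells Bcl2l11 also passed in the authors' deposited table. It did so after normexp with quantile normalization too, where Mcl1 did not pass. The cause of these changes was not tested. With the replicate number as a block, 1 member was called in pro-B cells, 2 for the difference (Bcl2l1 began to pass, adjusted p = 0.0436) and 9 at the hCD4- step (Bbc3 began to pass, adjusted p = 0.00717); same-numbered arrays deviated together at r of -0.01 to 0.25 over 15 group pairs, over 0.1 in 10 of 15, so the numbers are not taken to pair the arrays. The array median moved the median change of all genes from -0.06 to 0.24 in pre-pro-B cells, from 0.02 to -0.19 in pro-B cells and from -0.04 to 0.41 for GMP against hCD4- pre-pro-B cells. Slide as a block could not be fitted. Bcl2l11, Bmf in GMP and the second Bcl2l1 probe lie near background, which limits them to bounds.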

Other observations

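Bbc3 and Pmaip1 were higher on the array numbered 1 than on that numbered 2 in 6 of 6 groups. In the fit with the replicate number as a block they were 0.75 (SE 0.17, limma adjusted p = 0.214) and 1.13 (SE 0.26, adjusted p = 0.223) higher, and neither passed. Only 1 of 18597 genes passed for the replicate number. The median level of 11 immediate early and handling stress genes was also higher on the array numbered 1 in 6 of 6 groups, from 3.23 against 1.06 in GMP to 1.44 against 1.27 in hCD4+ pro-B cells, and 0 of the 11 passed. The labels do not say what the numbers stand for, and a shared cause was not tested.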
